A study of Mus musculus with 4 samples.

Results

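The guanylate-binding protein (Gbp) genes were followed across mouse liver RNA sequencing of 4 genotypes. The 9 members, Gbp2, Gbp3, Gbp5, Gbp6, Gbp7, Gbp8, Gbp9, Gbp10 and Gbp11, were taken by gene symbol from the 33639 genes of the deposited tables, and were selected on their levels in these same 4 libraries. Gbp2b and Gbp4, also in the tables, stand outside this set and are given where they share reads with a member. The groups were the double knockout of Cyp27a1 and Cyp3a (DKO), the Cyp3a knockout (Cyp3a KO), the Cyp27a1 knockout (Cyp27a1 KO) and wild type (WT). The series asked how global deletion of these genes affects bile acid synthesis. All mice were males on standard chow with no other treatment, the deletions are global, and the labels write the deleted Cyp3a gene with the human symbol Cyp3a4. The sources used here give neither age nor strain.

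Each genotype was 1 mouse and 1 library, so no difference below has a replicate check and none carries a p-value. Library totals ran from 49745860 to 50378101 estimated counts. Levels are CPM, counts divided by the TMM-scaled size of the library, where 1 count was worth 0.0185 to 0.0214 CPM. Intervals in parentheses are exact 95% intervals of a ratio of counts, which reflect counting error alone. The deleted genes followed the labels, with Cyp27a1 at 65.3 CPM in the DKO and 57.6 in the Cyp27a1 KO, against 727 in the Cyp3a KO and 746 in WT. Cyp3a11 stood at 4.76 CPM in the DKO and 0.160 in the Cyp3a KO, against 23706 in the Cyp27a1 KO and 8742 in WT.

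Guanylate-binding proteins are large GTPases of cell-autonomous immunity, induced above all by interferon-gamma and also by type I interferons. They gather on the vacuoles of intracellular parasites and on bacteria, help to break these open, and promote inflammasome activation in macrophages. Interferon-gamma signals through its receptor and JAK kinases to promoters with gamma-activated sequences (GAS), while IRF1 and other factors act through interferon-stimulated response elements (ISRE). Mouse Gbp genes lie in a pair of clusters. In GENCODE M21 on mm10, the cluster on chromosome 3 holds Gbp5, Gbp7, Gbp3, Gbp2b and Gbp2 on the plus strand between 142493978 and 142638008. The cluster on chromosome 5 holds Gbp8, Gbp9, Gbp4, Gbp10, Gbp6 and Gbp11 on the minus strand between 105014150 and 105346472. Gbp11 is annotated there as a polymorphic pseudogene and the other 8 members as protein-coding.

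The genes of the chromosome 5 cluster are close copies, which bears on how their reads can be told apart. The first 120 coding bases are shown to make this visible, with capitals where a base differs from Gbp10. Gm43302 is a predicted protein-coding gene of the same cluster (105214907 to 105293695), whose span covers both Gbp10 (105215699 to 105239533) and Gbp6 (105270702 to 105293698).
Gbp10: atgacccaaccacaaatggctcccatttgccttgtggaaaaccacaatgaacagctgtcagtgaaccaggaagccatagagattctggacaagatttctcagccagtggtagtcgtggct
Gbp6: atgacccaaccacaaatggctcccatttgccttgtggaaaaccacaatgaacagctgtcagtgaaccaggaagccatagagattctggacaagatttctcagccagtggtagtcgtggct
Gm43302: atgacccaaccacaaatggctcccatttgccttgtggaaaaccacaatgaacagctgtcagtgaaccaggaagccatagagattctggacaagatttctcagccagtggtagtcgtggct
Gbp11: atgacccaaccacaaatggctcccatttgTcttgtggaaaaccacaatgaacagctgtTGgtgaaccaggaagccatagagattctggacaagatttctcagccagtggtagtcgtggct
Gbp9: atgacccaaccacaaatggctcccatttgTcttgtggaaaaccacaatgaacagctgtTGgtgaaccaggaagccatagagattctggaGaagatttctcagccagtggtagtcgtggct
Gbp8: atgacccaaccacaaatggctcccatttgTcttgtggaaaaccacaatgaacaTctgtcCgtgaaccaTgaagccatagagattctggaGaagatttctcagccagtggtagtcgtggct
Gbp10, Gbp6 and Gm43302 do not differ at any of the 120 bases, whereas Gbp11 differs from them at 3, Gbp9 at 4 and Gbp8 at 5. Over the whole coding sequence of 1836 bases, Gbp6 and Gbp10 were 98.4% identical, and Gbp6 and Gm43302 were 99.9% identical. The words of 31 bases that a pseudo-aligner can use show how far reads can be told apart. Only 10.2% of the 3842 words in Gbp10 transcripts were found in no other gene, against 25.7% for Gbp6 and 0 of 4280 words for Gm43302. Gbp11 kept 65.7% of its words to itself, Gbp8 68.9% and Gbp9 81.7%. On chromosome 3 the shares were higher, at 85.3% for Gbp7, 94.4% for Gbp3, 95.1% for Gbp2 and 96.9% for Gbp5. The deposited values show the sharing directly. Gbp2 and Gbp2b each had fractional counts, but together they summed to 431 in the DKO, 234 in the Cyp3a KO, 250 in the Cyp27a1 KO and 130 in WT, whole within 0.001.

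**Figure D1:**
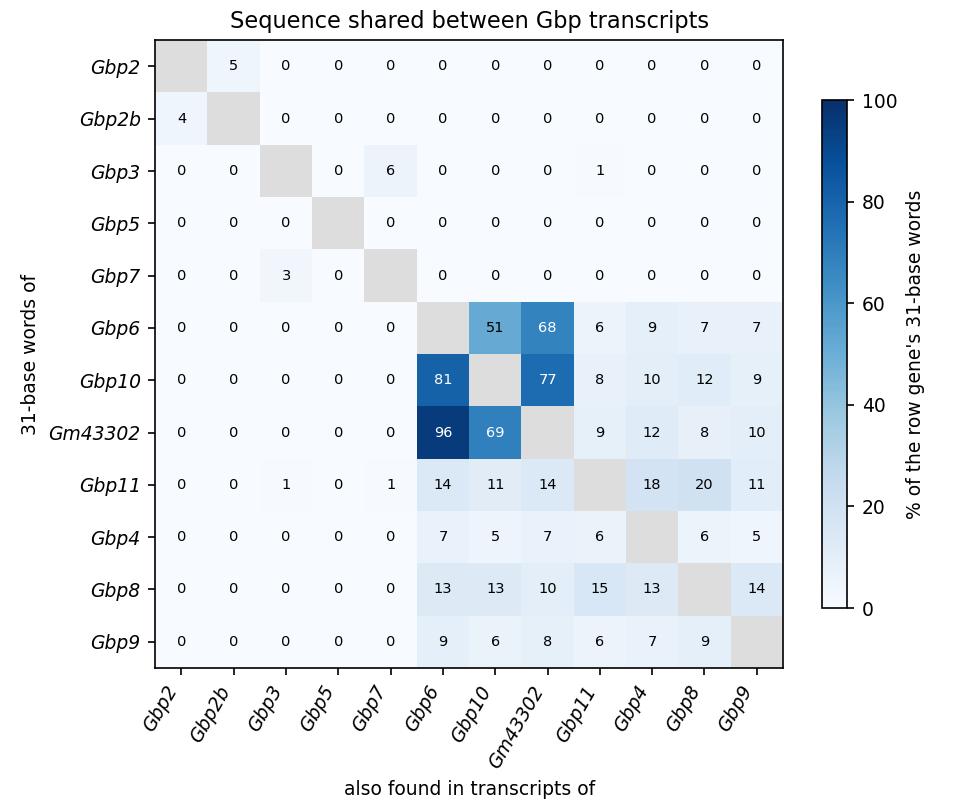
Share (%) of each row gene's 31-base words that also occur in transcripts of the column gene, from GENCODE M21 (grey: the gene itself). Gbp6, Gbp10 and Gm43302 form a block of 51% to 96%, while the genes on chromosome 3 share 6% or less with any other gene shown. Words shared with genes outside the figure are not counted in it.

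Summed over the 9 members, the family stood highest in the DKO and lowest in WT. The deposited counts summed to 4106 in the DKO, 2749 in the Cyp3a KO, 1715 in the Cyp27a1 KO and 768 in WT. In CPM the sums were 75.8 in the DKO, 54.9 in the Cyp3a KO, 34.4 in the Cyp27a1 KO and 16.5 in WT. The counting intervals of the 4 sums did not overlap. On CPM the first place of the DKO rested on Gbp11. The other 8 members summed to 47.9 CPM in the DKO and 52.9 in the Cyp3a KO. On deposited TPM the DKO stayed first without Gbp11, at 23.8 TPM against 20.4 in the Cyp3a KO. The CPM sum of all 9 was not called between these libraries (log2 fold 0.46). The sum in the DKO was 4.60-fold that in WT (4.26 to 4.98), in the Cyp3a KO 3.33-fold (3.08 to 3.62) and in the Cyp27a1 KO 2.09-fold (1.92 to 2.28). With Gbp2b, Gbp4 and Gm43302 added, the folds of the DKO, the Cyp3a KO and the Cyp27a1 KO were 4.74, 3.40 and 2.06. In bulk tissue, more cells of a type and more RNA per cell cannot be told apart.

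The text calls a gene higher or lower if it differed at least 2-fold on the log2(CPM + 0.5) scale, had a mean of at least 1 CPM, and had a counting interval that excluded 1. All 9 members had a mean of at least 1 CPM, a filter they passed partly through the library where each is highest. In the DKO against WT, 8 of 9 members were called higher and 0 lower, where 6.00% of the 11743 measured genes were called higher and 4.02% lower. In the Cyp3a KO 3 of 9 were called higher (2.56% of all genes higher, 1.86% lower), and in the Cyp27a1 KO also 3 of 9 (2.44% higher, 1.36% lower), with 0 members lower in both. The members were chosen with these contrasts known, so the shares are a description. Median log2 folds over the members were 1.24, 0.80 and 0.63 in the DKO, the Cyp3a KO and the Cyp27a1 KO against WT, while the median of all measured genes was -0.01, 0.01 and 0.00. Expression was low: the member with the highest mean, Gbp11 at 8.55 CPM, lay above 34.6% of measured genes. With a pseudocount of 2 CPM in place of 0.5, Gbp10 and Gbp11 alone were called in the DKO against WT, and 6 members lost the call.

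**Figure D2:**
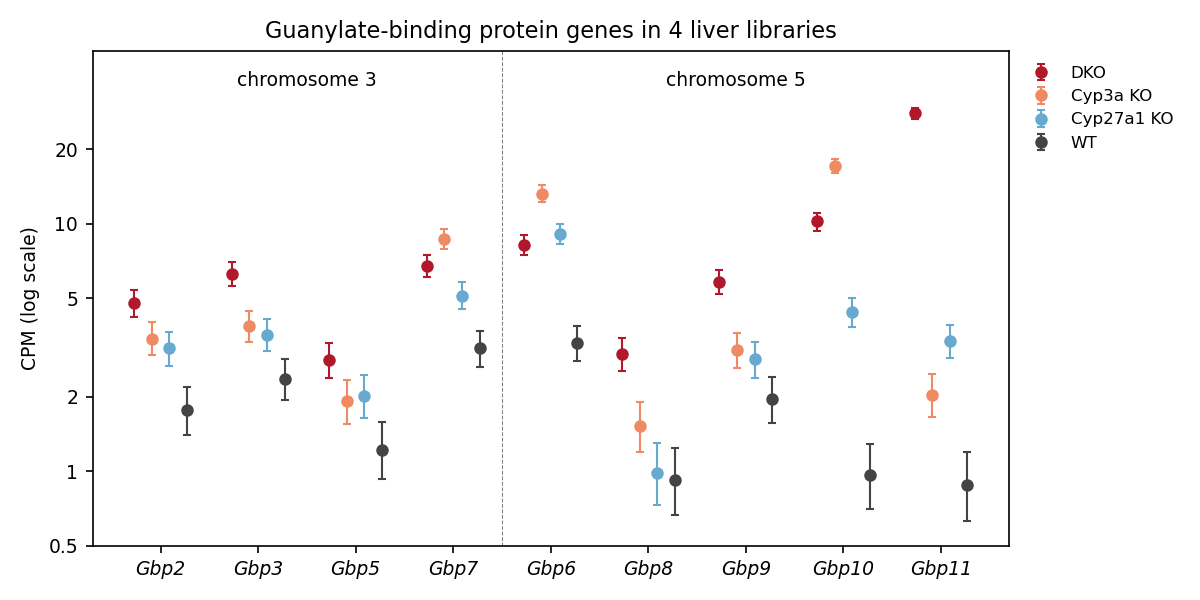
CPM (log scale) of the 9 members in the DKO, Cyp3a KO, Cyp27a1 KO and WT libraries, 1 library each, with exact 95% Poisson intervals of the count as bars. WT is lowest for every member, and Gbp11 in the DKO (27.9 CPM) and Gbp10 in the Cyp3a KO (17.2 CPM) stand apart.

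The 5 members of the chromosome 5 cluster summed to 55.2 CPM in the DKO, 37.0 in the Cyp3a KO, 20.6 in the Cyp27a1 KO and 8.0 in WT. The 4 members on chromosome 3 summed to 20.6 CPM in the DKO, 17.9 in the Cyp3a KO, 13.8 in the Cyp27a1 KO and 8.47 in WT. The clusters were thus about level in WT and apart in the knockouts. The DKO was 6.89-fold above WT for the chromosome 5 members (6.19 to 7.70) and 2.44-fold for those on chromosome 3 (2.17 to 2.74). Gbp10 and Gbp11 carried most of that gap: without Gbp11 the fold on chromosome 5 was 3.82 (3.39 to 4.32), and without both 2.76 (2.42 to 3.17), close to that on chromosome 3.

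Gbp11, the annotated pseudogene, was far higher in the DKO than in any other library. It had 1513 counts in the DKO (27.9 CPM), 102 in the Cyp3a KO (2.04 CPM), 167 in the Cyp27a1 KO (3.35 CPM) and 41.2 in WT (0.879 CPM). The DKO was 31.8-fold above WT (23.3 to 44.4), 13.7-fold above the Cyp3a KO (11.2 to 16.9) and 8.33-fold above the Cyp27a1 KO (7.09 to 9.83). Gbp11 made up 36.8% of the members' summed counts in the DKO and 5.34% in WT. Per transcript length (deposited TPM) it ranked first among the members in the DKO at 16.3 TPM and had 0.402 TPM in WT. The sum of the other 8 members was 3.07-fold higher in the DKO than in WT (2.83 to 3.34). Its ratio to the Cyp3a KO level was 0.905 on CPM (0.857 to 0.956) but 1.17 on deposited TPM. With Gbp11 the ratio to the Cyp3a KO on CPM was 1.38.

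Gbp10 was highest in the Cyp3a KO, and its reads are the hardest to separate after those of Gm43302. It had 553 counts in the DKO (10.2 CPM), 859 in the Cyp3a KO (17.2 CPM), 218 in the Cyp27a1 KO (4.38 CPM) and 44.7 in WT (0.965 CPM). Every knockout lay above WT, by 10.6-fold in the DKO (7.80 to 14.7), 17.8-fold in the Cyp3a KO (13.2 to 24.6) and 4.54-fold in the Cyp27a1 KO (3.28 to 6.399). Gbp6, whose product is known to gather on parasite vacuoles, had the same order of the single knockouts. It had 446 counts in the DKO (8.23 CPM), 663 in the Cyp3a KO (13.2 CPM), 452 in the Cyp27a1 KO (9.08 CPM) and 153 in WT (3.28 CPM). Compared with WT, Gbp6 was 2.51-fold higher in the DKO (2.08 to 3.03), 4.03-fold in the Cyp3a KO (3.38 to 4.84) and 2.77-fold in the Cyp27a1 KO (2.30 to 3.34). The DKO and the Cyp27a1 KO were indistinguishable for Gbp6 by counting error (ratio 0.907, 0.794 to 1.04).

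Among Gbp6, Gbp10 and Gm43302, whose annotated span covers the other genes, the deposited values of Gm43302 differed most between libraries. Gm43302 had 348 deposited counts in the DKO, 272 in the Cyp3a KO, 15.5 in the Cyp27a1 KO and 0.0366 in WT. Both libraries without Cyp3a thus stood well above the Cyp27a1 KO, and WT was near 0. Gm43302 was set over a floor of 3 counts in the WT library. This gave 99.8-fold in the DKO, 84.4-fold in the Cyp3a KO and 4.99-fold in the Cyp27a1 KO. These are not lower limits, as the counting intervals against WT began at 80.8-fold, 68.2-fold and 3.61-fold in the same order. Both sets of values take the deposited counts of Gm43302 as given. As no 31-base word is its own, its split from Gbp6 and Gbp10 is uncertain, and the sum of the 3 genes is the safer value. That sum was 24.9 CPM in the DKO, 35.8 in the Cyp3a KO, 13.8 in the Cyp27a1 KO and 4.25 in WT. It was 5.86-fold higher in the DKO than in WT (5.04 to 6.83), 8.44-fold in the Cyp3a KO (7.28 to 9.82) and 3.24-fold in the Cyp27a1 KO (2.77 to 3.82). The order of the 4 libraries was the same as for Gbp10 alone.

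Gbp8 and Gbp9, the other members on chromosome 5, were highest in the DKO and closer together elsewhere. Gbp8 had 161 counts in the DKO (2.97 CPM), 76.4 in the Cyp3a KO (1.52 CPM), 49.3 in the Cyp27a1 KO (0.984 CPM) and 43.0 in WT (0.922 CPM). The Cyp27a1 KO and WT could not be told apart at this depth (ratio 1.07, 0.694 to 1.65), while the DKO was 3.22-fold above WT (2.29 to 4.62). Gbp9 had 315 counts in the DKO (5.81 CPM), 154 in the Cyp3a KO (3.08 CPM), 141 in the Cyp27a1 KO (2.83 CPM) and 90.7 in WT (1.95 CPM). All knockouts lay above WT, the DKO by 2.98-fold (2.35 to 3.80) and the single knockouts by 1.58-fold and 1.45-fold without Cyp3a and without Cyp27a1. Gbp4, which overlaps both in the annotation, had 216 counts in the DKO, 128 in the Cyp3a KO, 107 in the Cyp27a1 KO and 63.9 in WT. Reads in the overlap of these 3 genes cannot be placed with certainty. Their sum was 3.01-fold higher in the DKO than in WT (2.56 to 3.54).

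On chromosome 3, Gbp2 and Gbp3 were graded, with the DKO highest, the single knockouts between and WT lowest. Gbp2, known in mice for control of Toxoplasma and anchored in membranes by a prenyl group, had 259 counts in the DKO (4.78 CPM), 172 in the Cyp3a KO (3.44 CPM), 156 in the Cyp27a1 KO (3.13 CPM) and 82.3 in WT (1.76 CPM). The single knockouts were close to each other and lay between the extremes. The DKO was 2.72-fold above WT (2.11 to 3.53). Gbp3 had 339.7 counts in the DKO (6.28 CPM), 193 in the Cyp3a KO (3.85 CPM), 177 in the Cyp27a1 KO (3.55 CPM) and 109.7 in WT (2.36 CPM). It repeated the order of Gbp2, with a DKO to WT fold of 2.66 (2.14 to 3.33).

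Gbp5, a promoter of NLRP3 inflammasome assembly that is also prenylated, was the member not called in the DKO. It had 152 counts in the DKO (2.81 CPM), 96.1 in the Cyp3a KO (1.92 CPM), 99.9 in the Cyp27a1 KO (2.01 CPM) and 57.4 in WT (1.22 CPM). The DKO was 2.30-fold above WT (1.68 to 3.17), but its log2 fold on the scale with the pseudocount was 0.94, just under the rule. Gbp7 broke the order of the cluster on CPM. On deposited TPM it was highest in the DKO, at 2.23 TPM against 2.06 in the Cyp3a KO. It had 367 counts in the DKO (6.77 CPM), 434 in the Cyp3a KO (8.67 CPM), 255 in the Cyp27a1 KO (5.12 CPM) and 146 in WT (3.13 CPM). On CPM the Cyp3a KO was highest, 2.77-fold above WT (2.29 to 3.36). The DKO was 2.16-fold above WT (1.78 to 2.64), which gave a log2 fold of 1.002, at the threshold.

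Promoter sequence was at hand for 4 of the 9 members, all on chromosome 3. Each window below runs from 250 bases before to 50 bases after the annotated start (RefSeq, GRCm38.p6, plus strand). These members are shown because their sequence was at hand. Levels above WT in all 3 knockout libraries were found for all 9 members and do not set these 4 apart. Capitals mark matches to a paired GAAA (GAAA, any 2 bases, GAAA), as in an ISRE, and to TTCNNNGAA, as in a GAS element. Both strands were searched, and 0 matches of the first motif overlapped one of the second.
Gbp2 (chr3:142620413-142620712): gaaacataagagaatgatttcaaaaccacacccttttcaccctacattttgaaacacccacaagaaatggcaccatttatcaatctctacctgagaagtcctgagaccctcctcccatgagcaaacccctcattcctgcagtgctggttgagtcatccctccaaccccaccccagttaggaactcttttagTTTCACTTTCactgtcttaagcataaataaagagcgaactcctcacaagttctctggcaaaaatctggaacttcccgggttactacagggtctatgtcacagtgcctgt
Gbp3 (chr3:142559794-142560093): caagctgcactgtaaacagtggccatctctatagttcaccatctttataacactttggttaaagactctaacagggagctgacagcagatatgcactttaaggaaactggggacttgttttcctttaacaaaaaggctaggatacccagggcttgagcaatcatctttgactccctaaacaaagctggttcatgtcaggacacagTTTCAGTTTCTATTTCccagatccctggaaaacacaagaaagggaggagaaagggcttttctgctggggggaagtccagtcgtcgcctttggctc
Gbp5 (chr3:142496684-142496983): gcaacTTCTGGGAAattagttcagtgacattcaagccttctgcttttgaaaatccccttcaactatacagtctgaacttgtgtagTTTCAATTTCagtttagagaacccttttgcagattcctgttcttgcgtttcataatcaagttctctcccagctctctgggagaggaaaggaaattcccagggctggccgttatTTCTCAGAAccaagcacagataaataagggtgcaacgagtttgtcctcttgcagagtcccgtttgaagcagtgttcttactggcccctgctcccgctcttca
Gbp7 (chr3:142530086-142530385): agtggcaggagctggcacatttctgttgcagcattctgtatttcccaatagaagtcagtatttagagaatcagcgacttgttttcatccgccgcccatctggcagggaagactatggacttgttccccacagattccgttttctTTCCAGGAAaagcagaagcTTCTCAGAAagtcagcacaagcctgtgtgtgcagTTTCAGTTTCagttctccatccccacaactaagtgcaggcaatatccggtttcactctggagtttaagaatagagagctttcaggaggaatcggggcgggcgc
The paired GAAA was found in windows of all 4 members, on the minus strand in each, at positions -59 to -50 in Gbp2, -53 to -44 in Gbp7 and -165 to -156 in Gbp5. In Gbp3 a pair of overlapping matches ran from -45 to -30 in the window shown, while a further window at a downstream start held neither motif. TTCNNNGAA was found in Gbp5 and Gbp7, at a pair of positions each. Among 32851 promoter windows of the same length, 3.44% held the paired GAAA, 8.30% held TTCNNNGAA and 0.454% held both. A match is a description of the letters and not evidence of binding.

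The design measures each loss in 2 separate library pairs, once on the WT background and once with the other gene already absent. Cyp3a loss on the WT background (Cyp3a KO against WT) had 3 members called higher, Gbp6, Gbp7 and Gbp10. On the Cyp27a1-null background (DKO against Cyp27a1 KO) there were also 3, Gbp8, Gbp10 and Gbp11, where 2.84% of all genes were called higher and 2.59% lower. Gbp10 was thus the 1 member called in both pairs, with folds of 17.8 and 2.33 (1.99 to 2.74 for the second). Gbp11 was 2.32-fold higher (1.60 to 3.41) on the WT background, under the rule, and 8.33-fold higher on the null background. The summed members were 3.33-fold and 2.20-fold (2.08 to 2.33) higher.

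For Cyp27a1 loss, the folds of some members changed direction between the backgrounds. On the log2 scale a member's difference between the backgrounds is the same for both losses by construction. Neither loss was thus more even than the other. On the WT background (Cyp27a1 KO against WT) Gbp6, Gbp10 and Gbp11 were called higher. With Cyp3a already absent (DKO against Cyp3a KO) Gbp11 was the 1 member called, where 4.02% of all genes were called higher and 2.70% lower. Gbp6, Gbp7 and Gbp10 lay on opposite sides of 1 in these 2 pairs, beyond counting error. Gbp10 was 4.54-fold higher on the WT background and 0.595-fold the Cyp3a KO level in the DKO (0.534 to 0.663). Gbp6 gave 2.77-fold and 0.622-fold (0.550 to 0.702), and Gbp7 1.64-fold and 0.782-fold (0.678 to 0.900), although on deposited TPM the second value of Gbp7 was 1.08-fold. The 3 genes Gbp6, Gbp10 and Gm43302 together gave 3.24-fold and 0.694-fold (0.646 to 0.745), so the same turn was present in their sum. Gbp2, Gbp3, Gbp5 and Gbp9 had similar folds on both backgrounds, between 1.39 and 1.89.

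**Figure D3:**
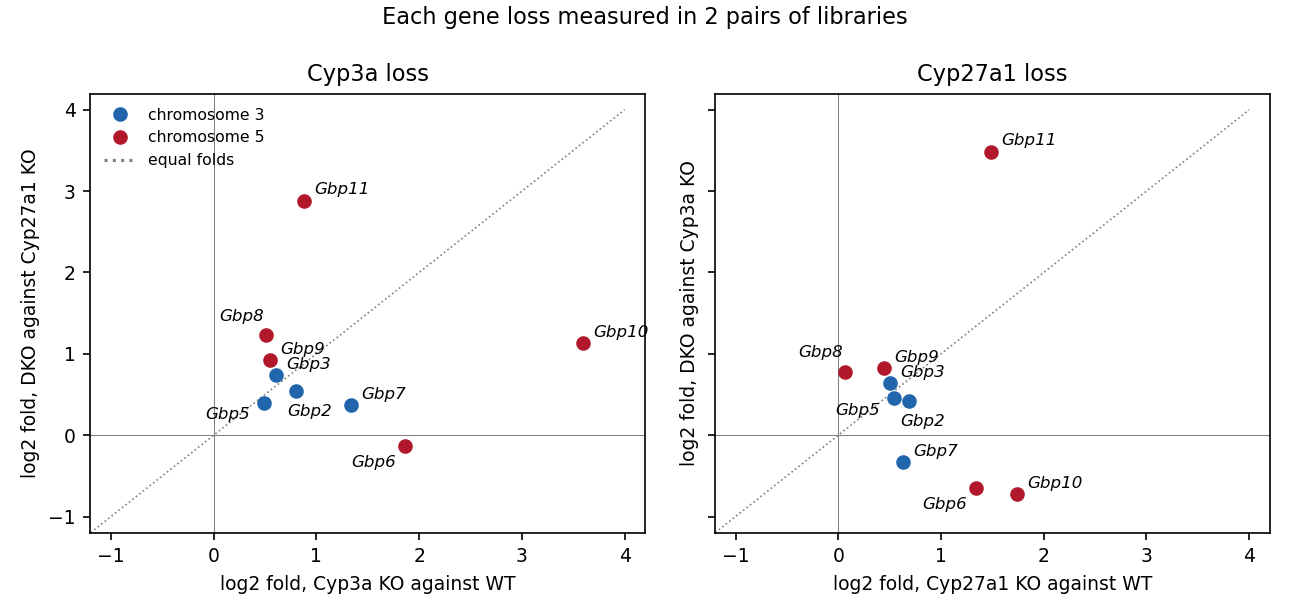
Log2 fold of each member, on the log2(CPM + 0.5) scale, for Cyp3a loss (left) and Cyp27a1 loss (right), with the WT background on the x axis and the other knockout as background on the y axis, 1 library per genotype. Gbp11 lies above the line of equal folds in both panels, and Gbp6 and Gbp10 lie below it. A gene's distance from this line is the same in both panels by construction, so the panels are not separate observations of it.

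Other interferon-regulated genes were compared from lists chosen with earlier results known. Of 11 measured immunity-related GTPases and Mx proteins, which act on pathogen vacuoles or viruses like the Gbp family, 4 were called higher and 0 lower in the DKO against WT (median log2 fold 0.80). Igtp had 16.4 CPM in the DKO, 18.2 in the Cyp3a KO, 9.70 in the Cyp27a1 KO and 6.46 in WT, a DKO to WT fold of 2.54. Ifi47, like Gbp10, was highest in the Cyp3a KO, at 16.5 CPM, against 9.40 in the DKO, 7.91 in the Cyp27a1 KO and 4.25 in WT. In the Cyp3a KO against WT 3 of the 11 were called higher (median 0.87), and in the Cyp27a1 KO 0 (median 0.54).

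Targets of type I interferon were called higher in 12 of 24 cases in the DKO (median 0.9998), 4 in the Cyp3a KO (0.57) and 1 in the Cyp27a1 KO (0.30), with 0 lower in each. Ifit1, an inhibitor of viral RNA translation, had 7.94 CPM in the DKO, 4.83 in the Cyp3a KO, 2.79 in the Cyp27a1 KO and 1.82 in WT. Of 15 further interferon-gamma targets 2 were called higher in the DKO (median 0.72), Cxcl10 and Cd274. In the Cyp3a KO 2 were also called higher (0.42), Cxcl10 and Psmb9, and in the Cyp27a1 KO 0 (0.35). The chemokine gene Cxcl10 stood at 2.09 CPM in the DKO and 0.386 in WT, and Cd274, encoding PD-L1, at 2.42 CPM in the DKO and 0.472 in WT. The members' median of 1.24 in the DKO was above the medians of these 3 lists, but in the Cyp3a KO their 0.80 was below the 0.87 of the immunity-related GTPase list.

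Upstream, no signalling gene was called in the DKO against WT, and the interferon genes named here had 3 counts or fewer in every library. Of 14 measured receptors, kinases and transcription factors, 0 were called there (median 0.19). Irf1, which drives Gbp transcription, had 17.1 CPM in the DKO, 16.0 in the Cyp3a KO, 11.1 in the Cyp27a1 KO and 9.05 in WT. Ifng, encoding interferon-gamma, had 3 counts in the DKO and 0 in each other library. A floor of 3 counts was worth 0.0599 CPM in the Cyp3a KO, 0.0602 in the Cyp27a1 KO and 0.0643 in WT. Ifnb1, Ifna1, Ifna2 and Ifna4 had 0 counts in all 4 libraries. Il18, an inducer of interferon-gamma, was the 1 measured ligand gene and was not called, with 342 counts in the DKO, 339 in the Cyp3a KO, 205 in the Cyp27a1 KO and 272 in WT.

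Among genes that act with Gbp proteins, 1 was called in the DKO against WT. Of 6 measured inflammasome genes, Il1b was called higher in the DKO against WT, at 109 counts in the DKO, 23 in the Cyp3a KO, 71 in the Cyp27a1 KO and 19 in WT. Casp1, the inflammasome protease, had 81 counts in the DKO, 69 in the Cyp3a KO, 59 in the Cyp27a1 KO and 48 in WT and was not called. None of 8 protein prenylation enzymes, 2 subunits of farnesyltransferase (Fnta and Fntb) among them, was called in any of the 5 comparisons, with a median of -0.06 in the DKO against WT.

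**Figure D4:**
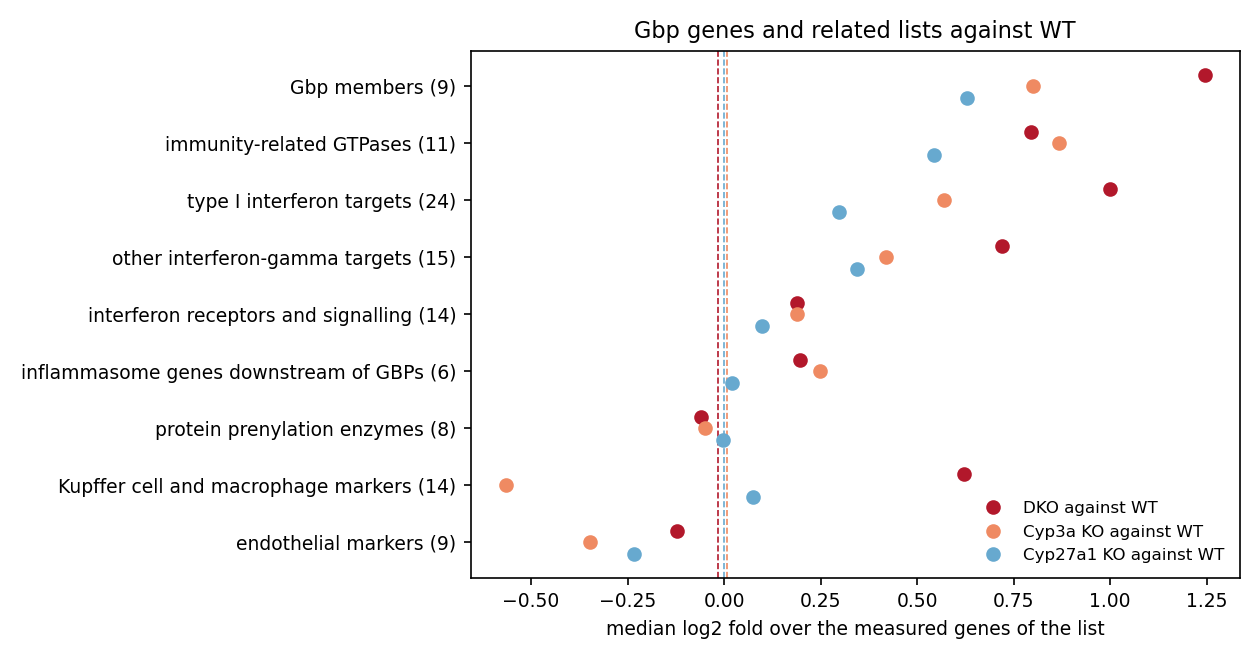
Median log2 fold, on the log2(CPM + 0.5) scale, over the measured genes of each list (number in parentheses) in the DKO, the Cyp3a KO and the Cyp27a1 KO against WT, 1 library each. Dashed lines mark the median of all 11743 measured genes, and all 3 comparisons share the WT library.

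Markers of other liver cells moved with the family in some libraries and not in others. The 14 Kupffer cell and macrophage markers summed to 549.9 CPM in the DKO, 240.2 in the Cyp3a KO, 381 in the Cyp27a1 KO and 358 in WT. They were thus highest in the DKO, where 2 of 14 were called higher, and lowest in the Cyp3a KO, where 2 were called lower, each against WT. In the DKO 8 of 14 were called higher against the Cyp3a KO (median log2 fold 1.16) and 3 against the Cyp27a1 KO (0.54). The Gbp sum in that Cyp3a KO library was 3.33-fold above WT with the macrophage markers below WT (median log2 fold -0.57). In the DKO both were above WT, and the part of these markers in the Gbp values was not tested. The 15 T and NK cell markers summed to between 4.74 and 5.83 CPM over the 4 libraries, with 1 of them measured, and the 7 neutrophil markers to under 1 CPM in each library. Cd3e had 14 counts in the DKO, 11 in the Cyp3a KO, 19 in the Cyp27a1 KO and 5 in WT. Of 9 endothelial markers 0 were called in the DKO (median -0.12). The 8 hepatocyte markers ran the other way, with 2 called lower in the DKO, Ttr and Tdo2, and a median of -0.61; they summed to 88550 CPM in the DKO, 66361 in the Cyp3a KO, 62601 in the Cyp27a1 KO and 104424 in WT. Of 10 measured stellate cell and cholangiocyte markers 1 was called lower in the DKO, Sox9, and the 10 B cell and dendritic cell markers summed to between 6.52 and 9.49 CPM over the libraries.

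Neighbouring genes were read at both clusters. Beside the chromosome 3 cluster, Pdlim5 had a log2 fold of 0.33 in the DKO against WT and Kyat3 one of 0.43. Gtf2b, farther on, had -0.54, and Bmpr1b had at most 2 counts in any library. Beside the chromosome 5 cluster, Abcg3 lies 31.4 kb before Gbp8 and Lrrc8b 69.3 kb beyond Gbp11. Abcg3 had 2.70 CPM in the DKO, 1.16 in the Cyp3a KO, 1.39 in the Cyp27a1 KO and 1.27 in WT. Lrrc8b had 2.64 CPM in the DKO, 0.799 in the Cyp3a KO, 0.904 in the Cyp27a1 KO and 1.09 in WT. Both neighbours were highest in the DKO, like Gbp11, with log2 folds against WT of 0.86 for Abcg3 and 0.98 for Lrrc8b, under the rule. Lrrc8b was called higher in the DKO against the Cyp27a1 KO (2.92-fold, 2.08 to 4.18) and against the Cyp3a KO (3.30-fold, 2.31 to 4.82), and Abcg3 in neither. The farther neighbours Zfp951 and Lrrc8c were lowest in the DKO, with log2 folds of -0.53 and -0.93.

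Genes with a pattern like that of the family sum were ranked by the Euclidean distance between their 3 log2 folds against WT and those of the sum, among 8667 genes with a mean of at least 5 CPM. The nearest were Mmab (distance 0.150), Erlin1 (0.324), Aqp4 (0.394) and Cyp2c38 (0.403), followed by Apol7a, Ablim1, Inf2 and Pmvk. Mmab had 49.9 CPM in the DKO, 32.3 in the Cyp3a KO, 23.2 in the Cyp27a1 KO and 10.5 in WT. None of the 8 stands in the interferon lists above. Genes of those lists with a mean under 5 CPM were not candidates, nor were Gbp and predicted genes. Their absence was thus fixed in advance and says nothing about their patterns. The likeness rests on 4 libraries and is a description of them.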

How the data were processed

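The members and gene lists were chosen with earlier results of these data known. Estimated counts by gene symbol were deposited by the authors, and 57.7% of them were whole; the deposited TPM scale each gene by transcript length and library. Per the submitters' processing notes, Trimmomatic 0.33, HISAT2 2.0.5, kallisto 0.43.1 and mm10 were used, with no role given. Per the labels' protocols, TruSeq RNA Library Prep Kit v2 libraries were made from liver stored in RNAlater; strand use in counting is not given in the sources used here. A row without a gene name (0 counts) was dropped. Counts were rounded and scaled with TMM factors (edgeR 4.0.16, R 4.3.3). Count ratios have Clopper-Pearson intervals from the conditional binomial, and single counts exact Poisson intervals; without molecular identifiers these cover counting error only. The calling rule was tested on simulated counts with Poisson counting error alone. They held no spread between animals, so false calls from that spread could not be assessed. Named genes are all Gbp rows, up to 4 genes per list with the largest DKO to WT log2 folds, genes at or near 0, the 8 nearest patterns and 2 protein-coding neighbours on each side of each cluster; not all are printed. Alternatives were library totals, size factors (DESeq2 1.42.0), deposited TPM, other filters and pseudocounts. Shared words and coding sequences came from GENCODE M21 transcripts (longest coding transcript, nonsense-mediated decay transcripts left out; Biopython 1.88). Python 3.11.15 was used.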

Additional observations from a re-analysis of the deposited data

Results flagged for a closer look

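Cyp27a1 loss had opposite directions on the 2 backgrounds for 3 members, each beyond counting error; the difference between the backgrounds was not tested, since each pair holds 1 library per genotype. The Gbp10 log2 fold was 1.74 for the Cyp27a1 KO against WT and -0.72 for the DKO against the Cyp3a KO. Gbp6 gave 1.34 and -0.65, and Gbp7 gave 0.63 and -0.33. On deposited TPM the second value of Gbp7 was 0.09, so its directions were not opposite there. The 3 genes are not 3 separate observations, as Gbp6 and Gbp10 share most of their sequence.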

How the results depend on the processing

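No paired analysis was possible because each genotype has 1 library. No library could be left out, for the same reason. Of the main values, 104 stayed within counting error or within 1.5 times a count over the alternatives and 21 did not. The 104 include the numbers of members called lower, which were 0 in every comparison and setting. They also include calls without the filter, which could not change since all 9 members pass it. The tally is therefore no measure of how stable the summed fold was. For the log2 fold of the summed members, main values were 2.17 (DKO against WT), 1.71 (Cyp3a KO against WT), 1.04 (Cyp27a1 KO against WT), 1.13 (DKO against Cyp27a1 KO) and 0.46 (DKO against Cyp3a KO). Deposited TPM moved them to 2.61 in the first, 1.20 in the third, 1.40 in the fourth and 0.90 in the last comparison, and recentring the TPM gave 2.28, 1.24 and 0.66 in the comparisons of the DKO with WT, the Cyp27a1 KO and the Cyp3a KO. Library totals gave 2.37, 1.24 and 0.58 in the same comparisons. Sums chosen after seeing the data moved more: without Gbp11 they were 1.59, 0.61 and -0.14 in those 3 comparisons, so the last changed sign. On deposited TPM that last value was 0.22, with no change of sign. Without Gbp6, Gbp10 and Gbp11 the 5 values were 1.34, 0.96, 0.61, 0.72 and 0.38. Members called higher in the DKO against WT numbered 8, but 4 with a mean of at least 5 CPM, where fewer members pass the filter, and 2 with a pseudocount of 2; in the DKO against the Cyp27a1 KO a pseudocount of 2 left 1 of 3. For single members 26 values moved beyond counting error and 244 did not, and no called member changed sign. Over all genes, deposited TPM moved the median log2 fold to 0.32 in the DKO against WT, and the share of calls that were higher was 82.6% there, against 59.9% by scaled counts, and 73.3% by library totals. That share on TPM was 78.0% against 64.2% for the Cyp27a1 KO against WT, 65.2% against 52.3% for the DKO against the Cyp27a1 KO, and 77.8% against 59.8% for the DKO against the Cyp3a KO. Low counts limit Gbp8, Gbp10 and Gbp11 most, with 41.2 to 44.7 counts each in WT.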

Other observations

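Gbp4, Gbp7 and Gbp9 differed between libraries in the ratio of deposited counts to deposited TPM, a quantity that follows the length of the transcripts to which reads were assigned. Relative to the median measured gene of each library, the ratio for Gbp4 was 1.11 in the DKO and 1.17 in the Cyp3a KO, against 1.96 in the Cyp27a1 KO and 1.91 in WT. For Gbp9 it was 1.55 in the DKO and 1.46 in the Cyp3a KO, against 1.94 in the Cyp27a1 KO and 1.83 in WT. Both genes thus had the lower ratio in the libraries without Cyp3a. Gbp7 also varied, but not along that split, with 2.01 in the DKO, 2.29 in the Cyp3a KO, 1.94 in the Cyp27a1 KO and 2.44 in WT. For Gbp2, Gbp8 and Gbp11 the ratio in the DKO was 1.01 times that in WT. On deposited TPM the DKO to WT fold of Gbp4 was 6.48, against 2.90 on CPM.

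Gm43802, annotated as a processed pseudogene inside Gbp7, had 23.2 deposited counts in the DKO, 7.74 in the Cyp3a KO, 2.40 in the Cyp27a1 KO and 0 in WT.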
